A study of Homo sapiens with 8 samples.

Results

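The comparison described here is the LNCaP array treated with actinomycin D and caffeine minus the LNCaP array treated with caffeine only, with caffeine present on both sides. LNCaP cells are androgen-responsive prostate carcinoma cells that came from a lymph node metastasis. The second line of the study, 22Rv1, came from a xenografted prostate tumour. In each line 1 plate was left untreated and 3 plates received 10 mM caffeine for 4 hours, which the study used to inhibit nonsense-mediated mRNA decay (NMD). RNA of the untreated plate and of 1 caffeine plate was taken then. The other plates were washed and kept for 4 more hours in 2 μg/ml actinomycin D, in one with caffeine kept (here the actinomycin D array) and in the other without it (here the washout array). The added factors between both arrays compared are therefore actinomycin D, the wash and 4 more hours, and these cannot be told apart. Messenger RNA was measured on Affymetrix U133 Plus 2.0 arrays as log2 signals, with 8 arrays in all and 1 array per treatment and line, so no difference within LNCaP has a replicate check, and no test was possible there. Members are the probe sets with a log2 signal of at least 4 on either of the 2 arrays, which were 22063 of 54675. Each of 10809 genes was represented by 1 probe set, the one with a single gene symbol and the highest mean signal over all arrays.

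Actinomycin D binds DNA and blocks RNA polymerases, so that mRNAs are no longer replaced and each falls at the pace of its own decay. mRNAs of signalling feedback genes, of many transcription factors and of other regulators are known for short half-lives, while those of ribosomal proteins, metabolic enzymes and respiratory chain subunits are known to be stable. Caffeine is known to inhibit kinases of the family that holds SMG1, an NMD kinase, and phosphodiesterases that break down cyclic AMP.

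Each deposited value places a transcript against the rest of its array, since all 8 arrays were normalized to 1 distribution, with a median signal of 2.75. A fall common to every mRNA leaves no trace on that scale. Bacterial poly-A RNAs are spiked in during sample preparation, and their 24 control probe sets averaged 6.40 on the untreated LNCaP array, 6.18 on the caffeine array, 7.32 on the actinomycin D array and 7.71 on the washout array. They differed by 1.14 (SD 0.47 over probe sets) between both arrays compared, with all 24 above 0, and by 0.77 in 22Rv1. The 18 hybridization controls, which are added after labelling, differed by 0.50 (SD 0.25). When the arrays were scaled on the poly-A probe sets, the median of all detected genes was -1.14. How much poly-A RNA was added to each sample is not given in the sources used here. All other differences below are relative to the other transcripts of the array.

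The LNCaP actinomycin D array also stood apart in its 18S ribosomal RNA (rRNA) signal. Probe sets of 18S rRNA averaged 5.60 on the untreated array, 4.09 on the caffeine array, 11.71 on the actinomycin D array and 6.25 on the washout array. The difference of 7.62 between the arrays compared was 1.91 in 22Rv1. For 28S rRNA the means of 3 probe sets were 6.42, 4.46, 8.24 and 7.26 in the same order. Of the 3, 1 stayed below the floor on every array. The others were at 11.82 and 10.62 on the actinomycin D array and at 7.92 and 11.58 on the washout array. For 28S this array was therefore less clearly apart. The distance between 3′ and 5′ probe sets, which grows as RNA breaks, was 0.64 and 0.48 for GAPDH and 2.07 and 1.81 for ACTB, so it was no larger on the actinomycin D array. The part of the rRNA signal in the results below was not tested.

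**Figure D1:**
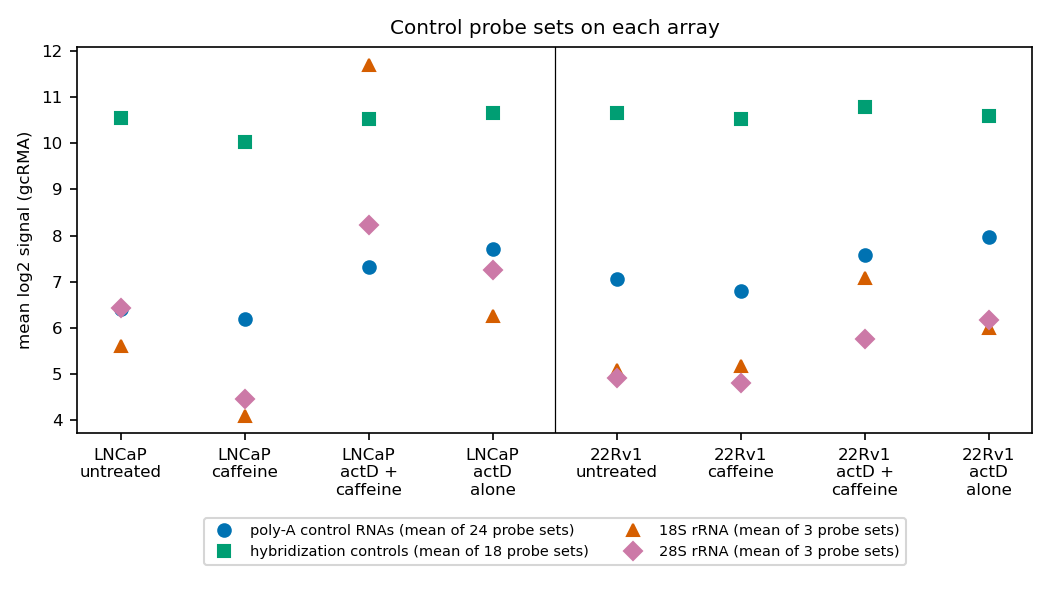
Mean log2 signal of the control probe sets on each of the 8 arrays, LNCaP on the left and 22Rv1 on the right; actD is actinomycin D, and each point is the mean of the probe sets given in the legend. The 18S rRNA mean of 11.71 on the LNCaP actinomycin D with caffeine array is the highest of the 18S means, and the poly-A controls are higher on the actinomycin D arrays of both lines than on the caffeine arrays.

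The markers of LNCaP were present. The kallikrein mRNA KLK2 was at 10.70 on the caffeine array and 9.80 on the actinomycin D array. KLK3, which encodes prostate-specific antigen, was at 7.96 and 6.77, and the prostate homeobox factor HOXB13 was at 10.65 and 10.61. Of 7 detected epithelial and mesenchymal marker genes 1 was lower and 2 higher by at least 1, with a median difference of -0.08. Among all genes 8.54% were lower and 4.69% higher. The epithelial genes KRT18 and CDH1 differed by -0.15 and -0.08, while KRT8 was at 8.90 and 9.91 and EPCAM at 10.39 and 9.41. Of 7 markers of other cell types, 5 (COL1A2, PTPRC, PECAM1, KRT5 and KRT14) were at 2.86 or below on all 8 arrays. The fibroblast marker COL1A1 was above the floor on all 8. In LNCaP it read 8.50 untreated, 8.39 after caffeine, 5.29 on the actinomycin D array and 5.82 on the washout array. In 22Rv1 it lay between 5.86 and 8.65. The mesenchymal filament gene VIM differed between LNCaP arrays. Its signal was 6.58 on the untreated array and 6.74 on the caffeine array, against 9.64 on the actinomycin D array and 9.34 on the washout array. In 22Rv1 VIM lay between 11.12 and 11.32 on all 4 arrays. The androgen receptor was not analysed here.

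Of the 22063 probe sets detected, 2058 (9.33%) were lower on the actinomycin D array by at least 1 on the log2 scale, which is 2-fold, and 1772 (8.03%) were higher. After scaling on the poly-A probe sets, which moves every difference down by 1.14, these counts were 13174 lower and 464 higher. Detected control probe sets, such as those of rRNA, are among the probe sets counted but not among the genes. Over genes, 923 of 10809 (8.54%) were lower and 507 (4.69%) higher, with a median of 0.00 and an SD of 0.73. In such bulk RNA fewer cells with a transcript and less of it per cell cannot be told apart. Differences of at least 2 were found for 152 lower and 87 higher genes, and differences of at least 3 for 22 lower and 29 higher genes. The share of probe sets called dropped with brightness, from 11.2% lower and 10.2% higher at signals of 4 to 6 to 4.06% and 2.15% at signals of 12 or more. Just inside the floor, 367 probe sets with their brighter signal between 4.0 and 4.1 had a median difference of -0.06, with 90% of them between -1.20 and 1.14. Just outside it, 382 probe sets with a brighter signal of 3.9 to 4.0 had a median of -0.06, with 90% of them between -1.28 and 1.29. With signals under 4 set to 4, 825 genes (7.63%) were lower and 426 (3.94%) higher.

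The lowest difference of any gene was that of TRIB1. This pseudokinase gene, whose product directs proteins to ubiquitin ligases, was at 9.12 on the untreated LNCaP array, 9.38 on the caffeine array, 4.67 on the actinomycin D array and 4.86 on the washout array. TRIB1 was thus high on the arrays without actinomycin D and low on those with it, with a difference of -4.71 (26.2-fold) when caffeine was kept. In 22Rv1 it went from 11.24 to 6.04. DDIT4, an inhibitor of the growth kinase mTORC1 that is made under stress, read 12.09, 10.56, 5.93 and 4.68 in the same order, with a difference of -4.63 (24.8-fold). Caffeine alone left it lower than on the untreated array, and both actinomycin D arrays were lower again. PHLDA1, a pleckstrin-homology protein of growth factor signalling, read 9.50, 7.90, 3.94 and 3.93, below the floor on both arrays with actinomycin D. Its 3 other detected probe sets differed by -2.69 to -1.29.

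The MAP kinase phosphatase DUSP1, which switches off ERK, p38 and JNK, was at 8.35 untreated, 8.32 after caffeine, 4.84 with actinomycin D and caffeine and 5.06 on the washout array. The difference was -3.48, while a second DUSP1 probe set differed by 0.05. Among 12 detected feedback inhibitors of the ERK pathway 4 (33.3%) were lower and 0 higher, against 8.54% lower among all genes, with a median of -0.22 beside 0.00 for all genes. Besides DUSP1 these were SPRED2, an inhibitor of RAF activation, at 6.30 and 4.23, and the phosphatases DUSP4 (8.36 and 6.95) and DUSP7 (6.42 and 4.99). In 22Rv1 8 of 12 were lower, against 6.73% of the genes detected in both lines, with a median of -1.78. Some of these mRNAs started higher there, for instance DUSP1 at 11.30 and SPRED2 at 8.83 on the 22Rv1 caffeine array.

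MYC, the growth-promoting transcription factor whose mRNA is a textbook case of rapid decay, was at 12.66 on the untreated array and 12.62 on the caffeine array. It stood at 9.31 on the actinomycin D array and 7.92 on the washout array. Its difference with caffeine kept was -3.31 (9.92-fold). In 22Rv1 MYC was at 11.81 and 5.48, so the LNCaP actinomycin D array held the higher remaining signal. The other detected genes of the MYC network differed by less than 1, with MAX, the partner of MYC, at 9.60 and 9.21 and the repressor MNT at 7.78 and 7.46. Of the 9 detected members MYC alone passed the cut-off.

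ZNF217, a zinc finger transcription factor often amplified in cancer, read 9.79, 9.10, 5.32 and 7.49 on the untreated, caffeine, actinomycin D and washout arrays. MED26, a Mediator subunit that recruits elongation factors to RNA polymerase II, read 7.44, 8.04, 5.04 and 4.27. Both were low wherever actinomycin D was present, though ZNF217 less so without caffeine. Of 12 detected ID and HES repressors with related inhibitors 2 (16.7%) were lower and 1 (8.33%) higher, with a median of -0.47. Among all genes 8.54% were lower and 4.69% higher, so these few genes were near that share. Among them SMAD7, an inhibitor of TGF-beta signalling, was at 5.37 on the caffeine array and below the floor, at 2.54, with actinomycin D. FEM1C, a substrate receptor of a ubiquitin ligase, differed by -3.20 (7.32 and 4.12), and the membrane protein gene GAS1 by at least 8.22-fold, from 7.04 to below the floor. RAB20, a small GTPase of membrane traffic, differed by -3.03, the transporter gene SLC16A14 by -3.13, and the receptor gene TNFRSF19 by -3.64 (-2.93 in its other probe set). COL1A1, a collagen chain, went from 8.39 to 5.29 in the probe set with its highest mean, but its 2 other detected probe sets differed by -0.11 and 0.04.

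**Figure D2:**
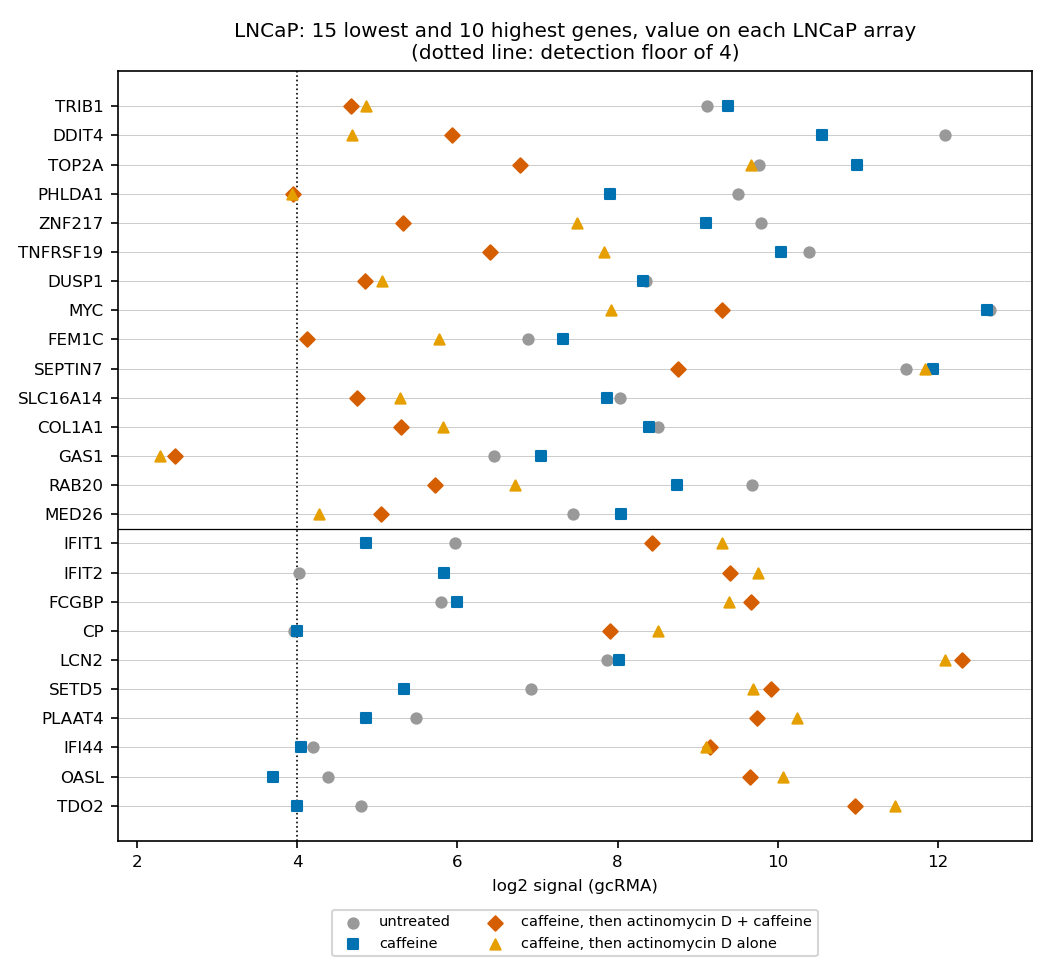
Log2 signal on each of the 4 LNCaP arrays for the 15 lowest (above the line) and 10 highest genes (below it), ordered by the difference between actinomycin D with caffeine and caffeine; the dotted line is the floor of 4. TRIB1, DUSP1 and PHLDA1 are low on both arrays with actinomycin D, TOP2A and SEPTIN7 only on the array with caffeine kept, and the 10 highest genes are high on both arrays with actinomycin D.

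The zinc finger genes, which encode DNA-binding proteins that mostly act as repressors, held the highest number of lower genes of any list, being also the longest list. Of 319 detected genes with a symbol starting with ZNF, 82 (25.7%) were lower and 7 higher, against 8.54% lower among all genes, and their median was -0.49. The list includes 11 symbols with a suffix, such as antisense transcripts. By share lower, the FOXO (42.1%), prostate (38.1%), ERK feedback (33.3%), clock (33.3%), mitosis (28.3%) and ATF4 (27.6%) lists stood higher. So did the 7 mitochondrially encoded genes (28.6%), a list added later. With signals under 4 set to 4, 65 ZNF genes (20.4%) were lower, against 7.63% of all genes. The share held at each brightness. It was 29.6% of 125 ZNF genes with a brighter signal of 4 to 6, where 9.09% of other genes were lower, 25.8% of 132 at 6 to 8 (others 10.3%), and 17.7% of 62 at 8 or more (others 6.37%). Many ZNF genes lie in clusters on chromosome 19. On that chromosome 26.3% of them were lower (35 genes), and elsewhere 25.3% (47 genes), while of the 615 other genes detected from chromosome 19, 4.39% were. ZNF267 was at 6.12 untreated, 5.99 after caffeine, 3.12 with actinomycin D and caffeine and 3.0 on the washout array. ZNF416 read 4.38, 5.52, 2.36 and 2.44, and ZNF571 5.25, 5.13, 2.36 and 2.51. For these genes both arrays with actinomycin D were below the floor and both arrays without it above. Exceptions were ZNF91 (6.15 and 8.45) and ZNF292 (4.55 and 7.25), which were higher. In 22Rv1, on separate arrays, 84 of 301 detected ZNF genes were lower, against 6.73% of all genes detected in both lines, with a median of -0.42.

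Several lists of regulators were lower as groups, each with only part of its members past the cut-off. Of 19 detected FOXO targets and TXNIP family genes 8 (42.1%) were lower and 0 higher, against 8.54% lower among all genes, with a median of -0.41. CITED2, a co-regulator of CBP and p300, was at 9.46 on the caffeine array and 7.25 on the actinomycin D array, and IRS2, an adaptor of the insulin receptor, at 10.87 and 9.46. Other detected probe sets of both gave smaller differences, -1.42 and -0.05 for CITED2 and -0.44 for IRS2. KLF9, a Krüppel-like factor, was at 8.36 and 7.0. The 15 detected circadian clock genes had a median of -0.49 with 5 lower (33.3%), or 4 with signals under 4 set to 4. PER3, a period protein, differed by -2.04, and the clock activator BMAL1 by -1.57 (-0.37 in its other probe set). Its regulator RORA went from 4.87 to below the floor. Of 42 ubiquitin ligase adaptors 10 (23.8%) were lower and 1 higher (median -0.36). The iron sensor FBXL5 was at 9.86 and 8.0, the F-box gene FBXO11 at 7.23 and 5.38 and the ligase gene CBLB at 7.89 and 6.03. The other probe sets of FBXL5 and FBXO11 differed by -0.57 and -0.04. On the untreated array IRS2 was at 8.81 and CBLB at 5.36. Their caffeine values were thus the high ones, and the actinomycin D array was not below untreated. BMAL1 read 6.33 untreated, 7.58 after caffeine and 6.01 on the actinomycin D array. Untreated levels of CITED2 (9.66), KLF9 (7.90), PER3 (7.48), RORA (4.27), FBXL5 (9.32) and FBXO11 (7.53) were above the actinomycin D array.

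Genes of the ATF4 stress response had a median of -0.28, with 8 of 29 (27.6%) lower and 0 higher, beside 8.54% lower among all genes. Beyond TRIB1 and DDIT4, these included VLDLR, a lipoprotein receptor, at 5.24 and then below the floor, and the glutamine transporter SLC38A2 at 12.67 and 11.32. Of the p53 targets 5 of 26 were lower. PLK2, a polo-like kinase, differed by -1.52 and the phosphatase PPM1D by -1.20, while BAX, a pore-forming inducer of apoptosis, was higher at 5.61 and 7.32. Among D cyclins and CDK inhibitors 3 of 18 were lower. CDKN1B, the inhibitor p27, was at 9.42 untreated, 10.83 after caffeine and 8.96 with actinomycin D and caffeine. But CCND1, which encodes cyclin D1, was at 7.38 after caffeine and 9.08 on the actinomycin D array. CCND1 had been at 9.24 on the untreated array, so its caffeine value was the low one.

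Immediate early genes, which are switched on within minutes by growth signals and are known for very unstable mRNAs, differed little between both LNCaP arrays compared. Of 24 detected, 2 were lower and 1 higher, with a median of -0.30, near the background of 8.54% lower. On the LNCaP washout array 14 of the 24 were lower by at least 1 than on the caffeine array. Their median there was -1.12, beside -0.09 for all genes. IER2 was at 9.11 and 7.92 and CCN1, a matrix protein, at 4.49 and then below the floor. JUN, a subunit of AP-1, was at 7.12 untreated, 5.97 after caffeine, 5.07 with actinomycin D and caffeine and 4.98 on the washout array. In 22Rv1 16 of the 24 were lower, against 6.73% of the genes detected in both lines, with a median of -1.50. Caffeine levels were often higher there, with IER2 at 11.97 and JUN at 7.46. The nuclear receptor NR4A3 differed with opposite signs, from below the floor (3.75) to 5.49 in LNCaP and from 6.82 to 5.30 in 22Rv1. No test of this contrast between the lines was made.

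A few mRNAs of proteins that themselves act on mRNA were lower. Of 30 genes for binding to AU-rich elements and deadenylation 4 (13.3%) were lower and 0 higher, beside 8.54% lower among all genes, with a median of -0.31. That median was 0.31 below all genes, and 0.12 below with the mean over each gene's probe sets. TOB2, which recruits the CCR4-NOT deadenylase, was at 7.24 untreated, 6.87 after caffeine, 4.61 with actinomycin D and caffeine and 4.71 on the washout array. PAN3, a deadenylase subunit, differed by -1.68 and CNOT2, a subunit of CCR4-NOT, by -1.24. CPEB4 differed by -1.82, but the mean over its detected probe sets was 1.57. ZFP36, which binds AU-rich elements and destabilises mRNAs, was at 6.73 and 5.81. The general decay machinery had a median of -0.04 with 1 of 33 lower, and splicing factors of the SR family with CLK kinases one of -0.29 with 1 of 18 lower.

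The NMD factors were near the level of all genes. Of 13 detected, 0 were lower and 0 higher, against 8.54% lower and 4.69% higher among all genes, and their median was 0.15. UPF1, the helicase of the pathway, was at 8.29 untreated, 8.74 after caffeine, 8.84 with actinomycin D and caffeine and 8.25 on the washout array. The snoRNA host transcripts, natural substrates of NMD, had a median of -0.09, with 0 of 6 lower. EPB41L4A-AS1 was at 10.29 on the untreated array, 12.22 on the caffeine array, 12.14 on the actinomycin D array and 11.55 on the washout array. SNHG17 read 8.21, 10.21, 9.77 and 8.07, and ZFAS1 13.35, 14.51, 14.29 and 14.09. For these 3 probe sets the level with actinomycin D and caffeine was within 0.5 of the caffeine level. The other probe set of SNHG17 differed by -1.06, those of ZFAS1 by -0.27 to 1.3, and the host TAF1D by 0.61. The washout differences from the same caffeine array were -2.14 for SNHG17, -0.68 for EPB41L4A-AS1 and -0.42 for ZFAS1.

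Genes for basic cell functions mostly had list medians near the median of the array. Among all genes 8.54% were lower and 4.69% higher. Of 52 detected cytosolic ribosomal protein genes, 0 were lower and 0 higher, within -0.22 to 0.98 and with a median of 0.05. The respiratory chain and ATP synthase had a median of 0.22, with 0 of 65 lower and 0 higher. Its subunit genes NDUFV1 (11.66 and 12.55) and SDHC (9.46 and 10.38) had the largest differences. The mitochondrial ribosomal protein genes had a median of 0.11 with 2 of 74 lower, glycolysis enzymes 0.14 with 0 of 22 lower, and aminoacyl-tRNA synthetases 0.06 with 0 of 17 lower. Proteasome subunits stood at 0.05 with 3 of 30 (10.0%) lower, near the share of all genes. Translation initiation factors stood at 0.10 with 0 of 34 lower and 1 higher, and chaperones at 0.06 with 2 of 31 lower. For cholesterol and fatty acid synthesis the median was -0.18 with 1 of 27 lower, for the unfolded protein response of the endoplasmic reticulum -0.03 with 1 of 29 lower, and for general transcription factors with RNA polymerase II 0.04 with 1 of 40 lower. Apoptosis regulators had a median of -0.17 with 1 of 21 lower and 2 higher. The 7 mitochondrially encoded genes, a list added after the values were seen, included 2 lower, ND2 (14.38 and 12.83) and ND6 (8.63 and 5.91), while COX1 was at 15.42 and 15.41.

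**Figure D3:**
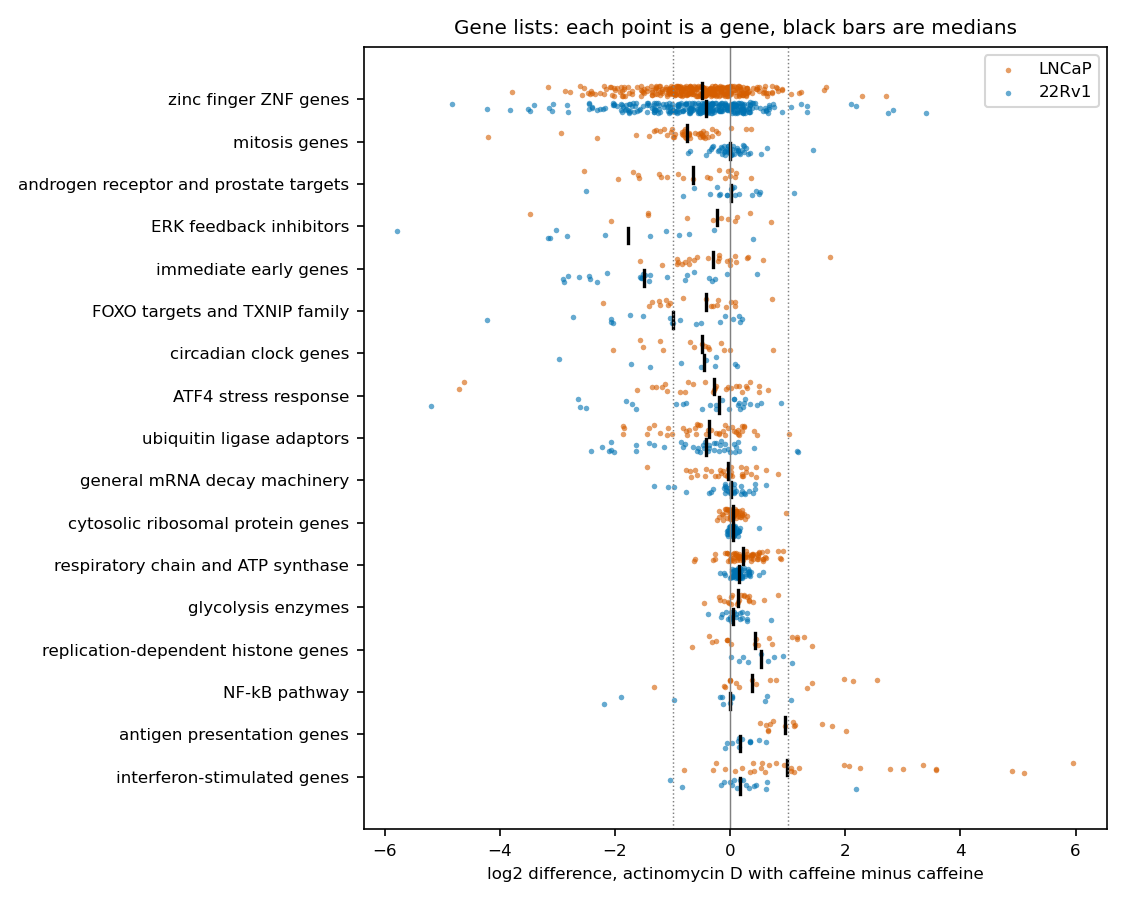
Log2 difference, actinomycin D with caffeine minus caffeine, of each detected gene in 17 lists, for LNCaP (orange) and for 22Rv1 where also detected there (blue); black bars are medians and dotted lines the cut-off of 1 either way. The ZNF genes have medians of -0.49 and -0.42, mitosis genes of -0.74 in LNCaP and 0.00 in 22Rv1, and ribosomal protein genes of 0.05 in both.

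Mitosis genes and prostate genes were lower in LNCaP and near 0 in 22Rv1. Of 46 mitosis genes 13 (28.3%) were lower and 0 higher in LNCaP, against 8.54% lower among all genes, 43 lay below 0, and the median was -0.74. In 22Rv1 the median was 0.00 with 0 lower and 1 higher, against 6.73% lower and 1.61% higher of the genes detected in both lines. KIF23, a motor of cell division, was at 7.58 untreated, 8.36 after caffeine, 6.05 with actinomycin D and caffeine and 6.69 on the washout array. TTK, a spindle checkpoint kinase, read 7.52, 9.17, 7.53 and 8.05, and CENPE, a kinetochore motor, 8.34, 9.14, 7.74 and 7.54. For TTK the caffeine array was the high one, and the actinomycin D array was at the untreated level. DNA replication genes differed less, with a median of -0.15 and 2 of 45 lower, among them PCNA, the sliding clamp, at 11.82 and 10.63.

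Of 21 detected androgen receptor and prostate targets 8 (38.1%) were lower and 0 higher, again beside 8.54% of all genes, with a median of -0.64 (0.01 in 22Rv1, with 1 of 19 lower). The protease gene TMPRSS2 was at 10.83 untreated, 10.29 after caffeine, 9.21 with actinomycin D and caffeine and 8.70 on the washout array. SLC45A3, or prostein, read 10.12, 10.09, 8.51 and 7.59, and FOXA1, a pioneer factor of the androgen receptor, 10.05, 10.96, 9.72 and 9.55. All of these were lower on both arrays with actinomycin D than on the caffeine array. GREB1, a hormone-induced gene, differed by -1.95. ACP3, or prostatic acid phosphatase, went from 4.18 untreated to 7.61 after caffeine and was at 5.94 and 4.95 on the arrays with actinomycin D. No test of the difference between the lines was possible.

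Some losses were large on 1 array only. TOP2A, the topoisomerase of dividing cells, was at 9.77 untreated, 10.99 after caffeine, 6.78 with actinomycin D and caffeine and 9.67 on the washout array. The washout array differed from the caffeine array by -1.32 for TOP2A, past the cut-off, but was near the untreated level. Its other detected probe set differed by 0.62 with caffeine kept, and in 22Rv1 TOP2A was at 10.64 and 10.66. SEPTIN7, a cytoskeletal GTPase, read 11.60, 11.94, 8.75 and 11.84 in LNCaP (-1.07 in its other probe set). The kinetochore gene NUF2 read 8.93, 9.09, 6.16 and 8.39, and the prostate metalloreductase STEAP2 12.27, 12.46, 9.93 and 12.28. These 4 genes lay within 0.5 of 0 in 22Rv1. The array on which they were low is the one with the 18S rRNA signal of 11.71, and its part in these values was not tested. Without TOP2A and NUF2 the mitosis list had 11 of 44 lower with a median of -0.72, and without STEAP2 the prostate list had 7 of 20 with a median of -0.52.

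The genes with the largest gains were high on both LNCaP arrays with actinomycin D and low on both without it. Over the 10 highest genes, signals were 7.90 to 12.30 on the actinomycin D array and 8.51 to 12.09 on the washout array, against 3.69 to 8.02 on the untreated and caffeine arrays. In 22Rv1 9 of the 10 were below the floor on all 4 arrays. TDO2, which breaks down tryptophan, was at 4.80 untreated and 4.0 after caffeine, against 10.97 and 11.47 on the arrays with actinomycin D. LCN2, an iron-carrying secreted protein of innate immunity, read 7.87 and 8.02 against 12.30 and 12.09. The copper carrier CP, or ceruloplasmin, read 3.96 and 4.0 against 7.90 and 8.51, and its 2 other detected probe sets differed by 3.01 and 4.65. FCGBP, a mucus protein, read 5.79 and 5.99 against 9.67 and 9.39. Why these signals were higher 4 hours after a transcription blocker was added was not tested. SETD5, a chromatin gene, gave 6.92, 5.33, 9.92 and 9.69, but its 2 other detected probe sets differed by -0.53 and -0.28.

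Interferon-stimulated genes, the antiviral genes switched on through STAT and IRF factors, made up much of this group. The list was added after the highest genes had been seen, so its count is a description. Of 30 detected genes 15 (50%) were higher and 0 lower in LNCaP, against 4.69% higher among all genes, with a median of 0.99. With signals under 4 set to 4 the count was 14, against 3.94% of all genes. OASL, an antiviral protein related to 2′-5′ oligoadenylate synthetases, was at 4.38 untreated, 3.69 after caffeine, 9.65 with actinomycin D and caffeine and 10.07 on the washout array. IFI44 read 4.19, 4.04, 9.15 and 9.10, and IFIT1, which binds viral RNA, 5.97, 4.86, 8.43 and 9.31. ISG15, a ubiquitin-like modifier, was bright throughout, at 10.53, 9.91, 12.17 and 12.30. In 22Rv1 9 of the 15 were below the floor on all arrays, while ISG15 was at 12.64 on the caffeine array and differed by -0.16. IRF1, a transcription factor of the same response, differed from the others. It was at 4.32, 5.13, 7.12 and 4.88, high on the actinomycin D array alone, and its other probe set differed by 0.62.

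Promoters of 4 of these genes are shown because interferon genes share a promoter motif, the interferon-stimulated response element. The sequences are from RefSeq on GRCh38.p14, 250 bases before and 50 from the start site, 5′ to 3′ on the gene's strand, with the letters TTTCNNTTTC or, for the other strand, GAAANNGAAA in capitals. The motif pair overlaps itself in ISG15. IFIT1 is at chr10:89392373-89392672 (plus strand), IFIT3 at chr10:89327747-89328046 (plus), IFI44 at chr1:78649539-78649838 (plus) and ISG15 at chr1:1013247-1013546 (plus).
IFIT1: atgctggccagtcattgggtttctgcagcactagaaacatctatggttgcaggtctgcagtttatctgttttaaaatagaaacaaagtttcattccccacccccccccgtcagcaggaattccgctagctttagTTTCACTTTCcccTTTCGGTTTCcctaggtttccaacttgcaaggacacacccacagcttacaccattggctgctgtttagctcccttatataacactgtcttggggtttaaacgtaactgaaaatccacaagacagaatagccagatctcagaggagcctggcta
IFIT3: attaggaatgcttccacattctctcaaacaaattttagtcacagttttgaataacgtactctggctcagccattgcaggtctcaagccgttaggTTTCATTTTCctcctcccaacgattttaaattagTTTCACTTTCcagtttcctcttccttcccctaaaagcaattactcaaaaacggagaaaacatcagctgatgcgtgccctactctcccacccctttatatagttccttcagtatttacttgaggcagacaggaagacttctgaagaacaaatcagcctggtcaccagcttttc
IFI44: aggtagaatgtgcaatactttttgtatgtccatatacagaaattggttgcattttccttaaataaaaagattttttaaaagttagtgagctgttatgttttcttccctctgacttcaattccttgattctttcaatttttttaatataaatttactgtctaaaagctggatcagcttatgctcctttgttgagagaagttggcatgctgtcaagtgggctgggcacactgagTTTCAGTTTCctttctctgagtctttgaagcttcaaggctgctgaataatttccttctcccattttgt
ISG15: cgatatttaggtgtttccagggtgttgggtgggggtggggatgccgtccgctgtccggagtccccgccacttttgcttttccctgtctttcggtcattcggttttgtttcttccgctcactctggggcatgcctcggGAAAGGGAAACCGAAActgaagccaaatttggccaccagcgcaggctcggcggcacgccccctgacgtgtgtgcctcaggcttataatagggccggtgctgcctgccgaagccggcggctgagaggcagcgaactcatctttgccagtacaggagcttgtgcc
The motif starts at -116 and -103 from the start site in IFIT1, at -156 and -122 in IFIT3, at -18 in IFI44 and at -113 and -107 in ISG15. It was in 996 of 27305 promoters of this length (3.65%), in 2.65% of the 8910 promoters of detected genes, in 6.72% of 387 promoters of genes higher in LNCaP and in 1.07% of 747 promoters of genes lower. Of the interferon genes detected, 15 of 24 with a promoter held it, and 8 of the 12 that were higher. IFIH1 and EIF2AK2 also held it, with differences of -0.80 and -0.25.

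**Figure D4:**
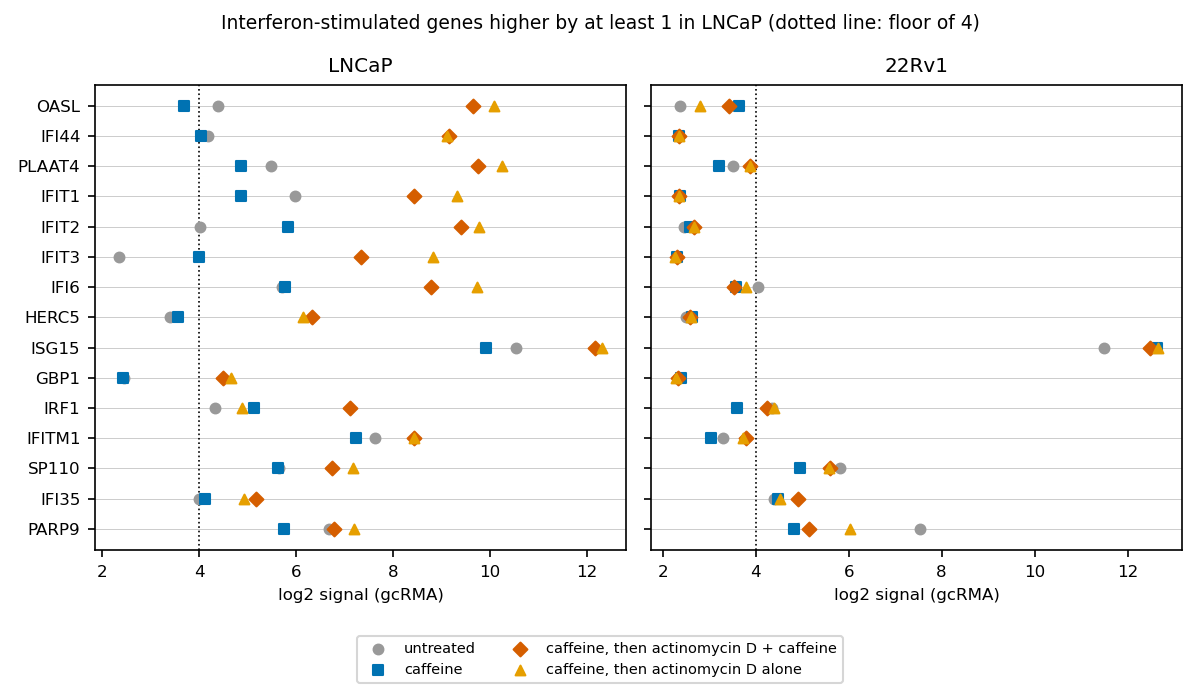
Log2 signal of the 15 interferon-stimulated genes that were higher by at least 1 in LNCaP on each of the 4 arrays of LNCaP (left) and 22Rv1 (right); the dotted line is the floor of 4. In LNCaP OASL, IFI44 and PLAAT4 lie at 9 or more on both arrays with actinomycin D, and in 22Rv1 9 of the 15 lie below the floor on all arrays.

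Of 13 detected antigen presentation genes, a list also added after the values were seen, 6 were higher (5 with signals under 4 set to 4) and 0 lower, and all lay between 0.52 and 2.02 (median 0.96, and 0.18 in 22Rv1). TAPBP, which loads peptides on class I molecules, was at 8.10 and 9.87, and the immunoproteasome subunit PSMB10 at 7.54 and 9.14. In the NF-kB list 5 of 17 (29.4%) were higher and 1 lower, against 4.69% higher among all genes, with a median of 0.38. This list lay 0.39 above all genes, but 0.16 above with the floor on both arrays and 0.15 with the mean over each gene's probe sets. The chemokine gene CCL2 read 7.14, 7.65, 10.20 and 10.52. NFKBIA, the inhibitor IkB-alpha with a short-lived mRNA, was at 10.50 untreated, 10.48 after caffeine, 9.15 with actinomycin D and caffeine and 8.65 on the washout array. RELB was at 3.23 on the caffeine array and 5.37 on the actinomycin D array but below the floor, at 3.95, on the washout array. Of 20 NRF2 and oxidative stress genes, the last list added, 4 were higher and 1 lower, with a median of 0.21. HMOX1, which breaks down heme, was at 5.61, 5.06, 8.46 and 8.38. The steroid-reducing enzymes AKR1C1, AKR1C2 and AKR1C3 differed by 3.37, 3.20 and 2.45, and these close paralogs may share probes.

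Of 18 detected replication-dependent histone genes 5 (27.8%) were higher and 0 lower, against 4.69% higher among all genes, with a median of 0.44. This list lay 0.45 above all genes. With signals under 4 set to 4 it lay 0.26 above, still with 5 higher. In 22Rv1 the median was 0.54 over 9 detected, of which 1 was higher, against 1.61% of the genes detected in both lines. H4C5 was at 4.53 and 5.97 and H2BC21 at 9.14 and 10.31. Among 10 nuclear long noncoding RNAs 2 were higher, with MALAT1, an RNA of nuclear speckles, at 11.52 untreated, 10.89 after caffeine, 12.14 with actinomycin D and caffeine and 12.45 on the washout array. The 10 other detected probe sets of MALAT1 differed by -3.78 to 3.74, so no direction can be given for it. FTX, the second of these, was below the floor, at 2.95, on the caffeine array and at 5.29 on the actinomycin D array. NORAD and TUG1 differed by 0.27 and -0.08. Over all 403 detected genes annotated as long noncoding RNA, 37 were lower and 40 (9.93%) higher, against 8.49% lower and 4.44% higher of 10245 protein-coding genes.

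Longer genes were lower slightly more often. With the detected genes cut into 5 equal bins by the length of the gene, the share lower was 6.99% in the shortest, up to 9.29 kb, then 6.76%, 8.56% and 9.67%, and 10.6% in the longest, from 87.0 kb. The medians were 0.106, 0.037, -0.021, -0.089 and -0.048, all small beside the SD of 0.73 over genes.

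The same contrast in 22Rv1, which shares no array with the LNCaP one, gave a partly overlapping set. Of the 10151 genes detected in both lines, 809 were lower in LNCaP and 683 (6.73%) in 22Rv1, and 225 were lower in both, which is 27.8% of the LNCaP set and 32.9% of the 22Rv1 set. Higher were 367 in LNCaP and 163 (1.61%) in 22Rv1, and 39 in both, 10.6% and 23.9% of the sets. The differences had a Pearson r of 0.39 over these genes, which share arrays and are not independent. Of the genes lower in LNCaP 427 (52.8%) lay within 0.5 of 0 in 22Rv1, as did 242 (65.9%) of those higher. The share of all genes within 0.5 of 0 there was not counted, so neither share is read as a difference between the lines. There were 8 genes lower in LNCaP and higher in 22Rv1, and 8 the reverse. Of all genes detected in both lines 1.61% were higher and 6.73% lower in 22Rv1. A further 114 lower and 140 higher genes were not detected in 22Rv1.

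Among the 225 genes lower in both lines 48 (21.3%) were ZNF genes, which were 2.97% of the genes detected in both. Ranked by the weaker of both losses, they began with TRIB1, PHLDA1, ZNF217 and DUSP1, then MYC, FEM1C and MED26. PTGER4, a prostaglandin E2 receptor, was at 7.02 and 4.18 in LNCaP and at 8.09 and 4.56 in 22Rv1. TIPARP, an ADP-ribosyltransferase induced by the aryl hydrocarbon receptor, was at 6.54 and 3.78 and at 7.76 and 3.42, and MSL2, a ubiquitin ligase of chromatin, at 6.96 and 4.32 and at 6.90 and 3.87. Of the 15 lowest LNCaP genes 10 were lower by at least 1 in 22Rv1, 4 lay within 0.5 of 0 there, and TNFRSF19 was not detected. Another detected probe set existed for 90 of the 225. For 36.7% of these genes at least 1 such probe set also passed -1, and for 44.4% none was lower by 0.5 or more. For the genes lower in LNCaP and near 0 in 22Rv1 these shares were 29.4% and 46.9% of 228. Of all detected probe sets with 1 symbol 9.1% were lower by at least 1.

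The 39 genes higher in both lines included ALYREF, an mRNA export adaptor, at 8.32 untreated, 6.74 after caffeine, 9.60 with actinomycin D and caffeine and 10.04 on the washout array in LNCaP. In 22Rv1 it read 7.78, 6.82, 8.48 and 8.75. SET, a histone chaperone, read 12.33, 10.08, 12.28 and 12.66 in LNCaP, and in 22Rv1 10.31, 9.34, 11.87 and 11.32. The repressor ZBTB20 read 6.70, 4.98, 7.29 and 7.62, then 6.25, 5.02, 8.59 and 8.34. For these genes the caffeine array was the lowest of each line.

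**Figure D5:**
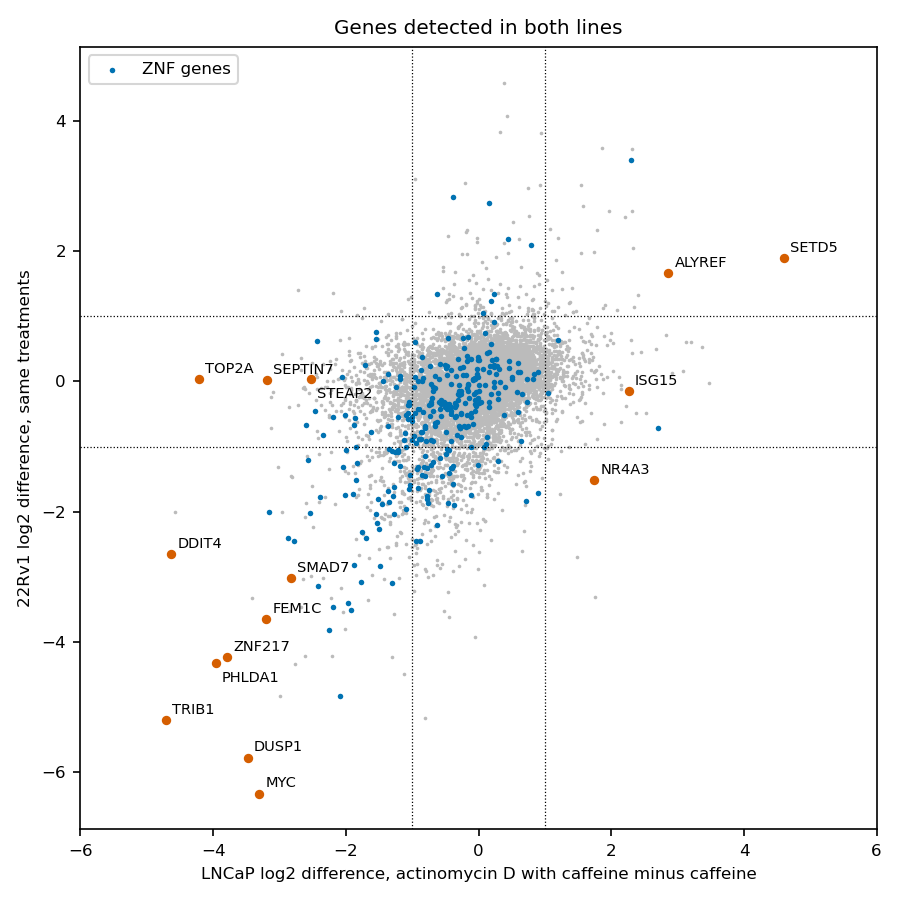
Log2 difference, actinomycin D with caffeine minus caffeine, in LNCaP (x axis) against 22Rv1 (y axis) for the 10151 genes detected in both lines; ZNF genes are blue, named genes orange, and dotted lines mark 1 either way. TRIB1, DUSP1, MYC and PHLDA1 are low on both axes, TOP2A, SEPTIN7 and STEAP2 are low on the LNCaP axis and near 0 on the other, and NR4A3 is higher in LNCaP and lower in 22Rv1.

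A limma fit that took both lines as replicates tested the response they share. Of 21453 probe sets 0 (0%) passed an adjusted p under 0.05, 2628 had an unadjusted p under 0.05, and the smallest adjusted p was 0.063. TRIB1 had an estimate of -4.96 (standard error 0.45, adjusted p = 0.107 from limma) and FEM1C one of -3.43 (standard error 0.37, adjusted p = 0.107 from limma). TIPARP had -3.55 (standard error 0.42, adjusted p = 0.107 from limma), DUSP1 -4.63 (standard error 0.64, adjusted p = 0.115 from limma) and MYC -4.82 (standard error 0.75, adjusted p = 0.131 from limma). TOP2A, low in LNCaP alone, had -2.09 (standard error 0.95, adjusted p = 0.455 from limma). After scaling on the poly-A probe sets 11137 probe sets fell and 72 rose at an adjusted p under 0.05 from limma. That scaling lowers every difference by 1 constant per line, 1.14 in LNCaP and 0.77 in 22Rv1. These counts therefore largely restate that shift.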

How the data were processed

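The authors deposited log2 signals of 54675 probe sets on 8 Affymetrix arrays, background corrected, quantile normalized and summarised with gcRMA from biotin-labelled total RNA; versions are not given in the sources used here. Values were analysed as deposited, and array number, not read depth, limits the precision. Probe sets took their gene from the array annotation: 41097 had 1 symbol, 1801 several and 11777 none, and 41043 of the first matched RefSeq genes of GRCh38.p14.

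A difference is the log2 value with actinomycin D and caffeine minus that with caffeine. The floor was 4 and the cut-off 1. Named genes are the 15 lowest and 10 highest with signals under 4 set to 4, plus, per list, the 4 members furthest from 0 and any others needed to describe it. TIPARP, PTGER4, MSL2, ALYREF, SET, ZBTB20 and the genes low on 1 array were chosen after their values were seen. The members and lists were chosen with earlier results of these data known. Of 35 lists, 13 had a median at least 0.25 below that of all genes, 2 at least 0.25 above and 20 in between. A further 4 lists were added after the values were seen. Mapped replicates exist only as the 2 cell lines, so limma 3.58.1 in R 4.3.3 was fitted with terms for treatment and line (3 residual degrees of freedom, prior 2.93), on probe sets averaging at least 4 over the arrays, with Benjamini-Hochberg adjustment, and was checked on simulated data. Nothing in the labels says that the plates were independent cultures repeated on other days, so its p-values measure only the spread between these arrays. The alternatives were other floors, cut-offs, scalings and normalizations, the mean over all probe sets of a gene, and other settings of limma. The rest used python 3.11.15, numpy 2.4.6, pandas 2.3.3 and matplotlib 3.10.9.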

Additional observations from a re-analysis of the deposited data

Results flagged for a closer look

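Control probe sets for rRNA and poly-A RNAs, which are counted among the probe sets where detected but not among the genes, gave signals above their untreated level. The 18S rRNA probe sets differed by 7.62 between the actinomycin D with caffeine array and the caffeine array of LNCaP, with 5.60 on the untreated array and 11.71 on the actinomycin D array. The 28S rRNA probe sets differed by 3.77 and the poly-A controls by 1.14. Their part in the other differences was not tested.

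NR4A3 differed by 1.74 in LNCaP and by -1.52 in 22Rv1, opposite signs in single arrays of each line. Its LNCaP caffeine signal of 3.75 is below the floor, and the LNCaP difference is 1.49 with signals under 4 set to 4. Whether the lines differ was not tested.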

How the results depend on the processing

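Replicate numbers gave no pairing, because the groups share only replicate number 1. Treatments were matched by cell line through the line term of limma. Without that term 0 probe sets were called and 552 had an unadjusted p under 0.05. Leaving out a cell line was not run, since no residual degrees of freedom are left. Counts of probe sets in LNCaP (2058 lower and 1772 higher) changed by over 1.5 times with a floor of 6 (1319 and 1095), with cut-offs of 0.5 (4824 and 4500), 1.3 (1213 and 1139) and 2 (341 and 539), and with scaling on the poly-A probe sets (13174 and 464). With the floor of 4 required on both arrays 1119 were higher. Other floors, signals under 4 set to 4, centring and repeated quantile normalization kept both counts within 1.5 times. Of 35 lists, 2 had medians at least 0.25 above all genes, and 1 did with the floor on both arrays, where the NF-kB list was 0.16 above. Of 13 lists at least 0.25 below, 9 were with the mean over all probe sets of a gene, where the immediate early (-0.19), MYC (-0.16), ATF4 (-0.19), SR factor (-0.04), AU-rich (-0.12) and D cyclin (0.05) lists were within 0.25 and the ERK feedback (-0.35) and cholesterol (-0.33) lists were not. Relative to all genes, list medians cannot change with poly-A scaling or centring, which move every difference alike. Quantile normalization of arrays that already shared 1 distribution left them almost unchanged. With a floor of 5, with the floor of 4 on both arrays and with signals under 4 set to 4, the list medians moved by less than 0.25 in all lists. They moved by more in 1 list with a floor of 3, in 2 with a floor of 6 and in 2 with the mean of all probe sets. The ERK feedback inhibitors, for instance, were at -0.22 relative to all genes and at -0.74 with a floor of 6.

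With the mean over all detected probe sets, 9 of 156 named genes changed sign, 5 of them from a difference of at least 1: CPEB4 (1.57), EXOSC6 (0.57), MRPS30 (0.03), EIF1AX (-0.18) and EDEM3 (0.41). The poly-A scale by construction moves every LNCaP difference down by 1.14, and 29 named genes changed sign on it, 4 of them from at least 1: HES4 (-0.07), BOK (-0.08), EIF1AX (-0.06) and KRT8 (-0.13). limma called 0 probe sets in either direction with its other settings, with 552 to 2738 at an unadjusted p under 0.05, except 1 that fell with no filter on low signals, and 11137 that fell and 72 that rose on the poly-A scale.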
